A study of Mus musculus with 2 samples.

Results

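Broad domains of trimethylated histone H3 lysine 4 (H3K4me3) were examined in unstimulated macrophages derived from the bone marrow of C57BL/6J mice. The regions were chosen by width: H3K4me3 peaks of the authors' replicated list that lay within 1 kb of each other were joined, and every joined domain of at least 4000 bp from its first to its last base was kept. This left 558 of 12993 joined domains, or 4.29%, with 2.83 Mb of the 24.3 Mb in all joined domains. Chromatin immunoprecipitation and sequencing had been done on 2 biological replicates of this 1 group, and no other treatment, genotype or time was measured. The labels enter both replicates under the same donor, do not say whether separate animals were used, and give age as unknown and sex as not collected. They name no transgene, deleted gene or added agent. The p-values that a comparison between conditions would need therefore do not exist here, and all that follows is description: counts, medians and ranges over regions, which are not replicates, beside the same values for the 12435 narrower domains.

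H3K4me3 is placed by the SET1 and MLL families of methyltransferases around the start sites of transcribed genes, where it flanks the nucleosome-free stretch of the promoter. At most genes it covers only the surroundings of the start, which often lie in a CpG island, a stretch rich in the dinucleotide CpG. At some genes it runs on into the transcribed body, and such broad domains are known from other work to lie at genes that define a cell's identity and at genes with steady transcription from cell to cell. Macrophages grown from bone marrow are phagocytes, rich in lysosomes, and depend on transcription factors such as PU.1 and MAF.

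The sequence under a broad domain changed along its length. The 3 widest domains with the start of a single coding gene are shown by 200 bases just before the start and 200 bases halfway from the start to the downstream edge, both in the direction of transcription, 5′ to 3′, with CpG in capitals. They were taken from the RefSeq copy of GRCm38.p6, the assembly that mm10 denotes, and lie outside annotated exons; the window before the Psap start was moved upstream by 1 base for this reason. Psap encodes prosaposin, the precursor of lysosomal activators of lipid breakdown, BC005537 is a gene known by its cDNA name, and Tnrc18 encodes a chromatin protein.
Psap before the start, chr10:60277427-60277626, plus strand: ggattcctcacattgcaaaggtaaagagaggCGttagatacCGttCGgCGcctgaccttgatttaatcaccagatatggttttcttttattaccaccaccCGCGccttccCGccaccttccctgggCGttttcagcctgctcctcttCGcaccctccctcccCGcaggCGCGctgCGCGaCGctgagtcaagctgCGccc
Psap halfway, chr10:60284092-60284291, plus strand: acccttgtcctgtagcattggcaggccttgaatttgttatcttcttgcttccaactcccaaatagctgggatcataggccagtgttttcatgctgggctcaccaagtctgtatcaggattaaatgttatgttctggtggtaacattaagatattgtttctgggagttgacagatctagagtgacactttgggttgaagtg
BC005537 before the start, chr13:24801457-24801656, plus strand: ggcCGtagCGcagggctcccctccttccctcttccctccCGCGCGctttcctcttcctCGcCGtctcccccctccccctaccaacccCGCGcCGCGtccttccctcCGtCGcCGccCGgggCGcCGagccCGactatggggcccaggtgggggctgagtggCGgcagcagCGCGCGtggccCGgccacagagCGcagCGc
BC005537 halfway, chr13:24806218-24806417, plus strand: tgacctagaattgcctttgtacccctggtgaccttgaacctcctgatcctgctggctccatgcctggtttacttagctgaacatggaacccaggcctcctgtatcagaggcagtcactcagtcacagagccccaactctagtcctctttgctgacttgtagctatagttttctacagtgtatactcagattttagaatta
Tnrc18 before the start, chr5:142817663-142817862, minus strand: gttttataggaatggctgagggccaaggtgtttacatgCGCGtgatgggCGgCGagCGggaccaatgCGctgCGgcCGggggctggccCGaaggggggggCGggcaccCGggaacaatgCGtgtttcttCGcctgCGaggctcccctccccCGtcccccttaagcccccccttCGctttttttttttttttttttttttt
Tnrc18 halfway, chr5:142815481-142815680, minus strand: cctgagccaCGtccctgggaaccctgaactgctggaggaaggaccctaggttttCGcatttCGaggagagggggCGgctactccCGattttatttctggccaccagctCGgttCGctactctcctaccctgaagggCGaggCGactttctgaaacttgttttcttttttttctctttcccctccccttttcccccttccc
The windows before the start held 16 CpG at Psap, 25 at BC005537 and 16 at Tnrc18. Halfway to the downstream edge the counts were 0 at Psap, 6564 bp from its start, 0 at BC005537, 4661 bp from its start, and 9 at Tnrc18, 2081 bp from its start. The mark thus lay on CpG-poor sequence far inside the first 2 domains, whereas the Tnrc18 domain was CpG-rich over most of its length, with 83.6% of its bases in CpG islands against 8.77% of the Psap domain and 21.9% of the BC005537 domain.

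Among domains with starts of several coding genes, the promoter of Bcl6 is shown, from the domain at chr16:23981137-23989486. Bcl6 encodes a transcriptional repressor that restrains inflammatory genes.
Bcl6 before the start, chr16:23988853-23989052, minus strand: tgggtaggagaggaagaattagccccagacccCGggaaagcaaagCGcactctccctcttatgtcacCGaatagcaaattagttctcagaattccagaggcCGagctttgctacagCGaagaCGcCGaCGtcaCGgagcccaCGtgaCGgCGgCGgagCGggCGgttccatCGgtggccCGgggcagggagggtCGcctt
The Bcl6 window held 18 CpG. In the domain of Brd2 the 200 bases directly before the start overlap annotated exons, and the nearest window free of exons, 508 bp further upstream, is not shown.

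The 558 domains ranged in width from 4000 to 13777 bp, with a median of 4723.5 bp and quartiles of 4285.5 and 5503 bp. The narrower domains had a median of 1673 bp. The width ran on without a step across the threshold, since 347 domains were 4 to 5 kb wide, 123 were 5 to 6 kb, 88 were 6 kb or more and 1052 lay just below, at 3 to 4 kb. Just inside stood the domains of Tspyl1, of Arrdc3 and of Dnajc2 with Psmc2, each 4000 bp wide, and just outside those of Aftph at 3997 bp, of G6pdx with Ikbkg at 3996 bp and of St3gal1 at 3991 bp. Because the replicated list repeats peaks of the list called on both alignments together (16890 of 16957 peaks are identical in coordinates), these widths are those of the pooled data.

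Replicate 2 gave narrower domains than replicate 1 nearly everywhere. When peaks of each replicate's own list were joined in the same way, the widest joined domain at each of the 558 regions had a median of 4832 bp in replicate 1 (3293 to 13804 bp) and of 4020.5 bp in replicate 2 (755 to 10041 bp). The domain was wider in replicate 1 at 553 of 558 regions, with a median ratio of 1.18, and the narrower domains showed a ratio of 1.22. All 558 regions carried a peak in both replicates. A width of 4000 bp was reached in both replicates at 288 regions (51.6%, 95% Wilson interval 47.5 to 55.7%), in replicate 1 only at 259, in replicate 2 only at 0 and in neither at 11. The share reached in both was 33.7% among regions of 4 to 5 kb, 77.2% among those of 5 to 6 kb and 86.4% among those of 6 kb or more. On its own, replicate 1 had 681 joined domains of at least 4000 bp among 15000, or 4.54%, and replicate 2 had 288 among 11892, or 2.42%. Of these, 547 of the 681 and 288 of the 288 overlapped the 558 regions. Sequencing depth is unknown from peak lists, so its part in the smaller widths of replicate 2 was not tested.

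**Figure D1:**
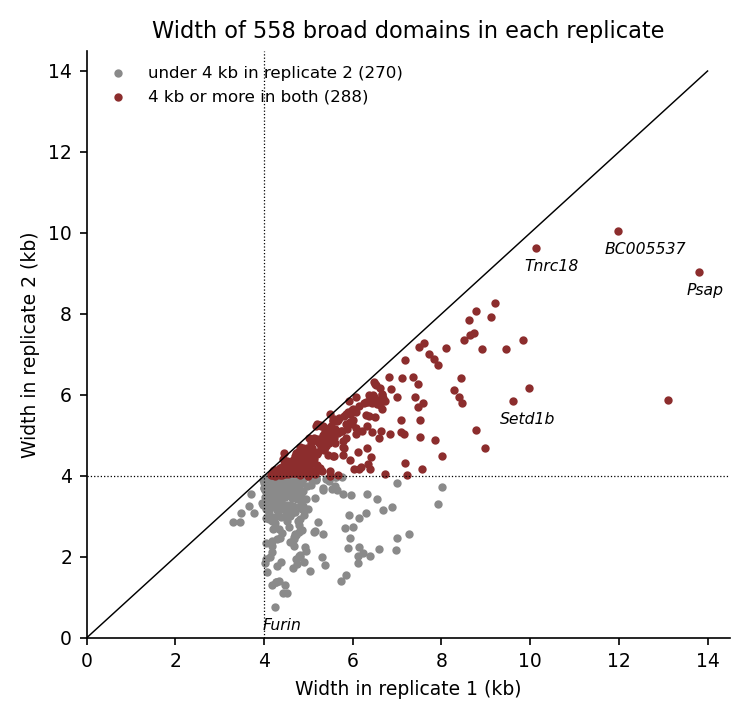
Width of the 558 broad domains in replicate 1 (x axis, kb) against replicate 2 (y axis, kb); each point is a region, the diagonal marks equal width and dotted lines mark 4 kb. Points lie below the diagonal at 553 regions, 288 (red) reach 4 kb in both replicates, and 270 (grey) are under 4 kb in replicate 2.

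The regions with the most unequal widths were broken up in replicate 2, and fewer of their bases lay under a peak. At Furin, a gene for a protein-cleaving enzyme, replicate 1 had 4239 bp and replicate 2 a widest piece of 755 bp, a ratio of 5.61. The peaks of replicate 2 fell into 2 joined pieces there and covered 1323 bp of the region, against 2712 bp in replicate 1. The domain at the start of the noncoding gene Gm26698 followed with a ratio of 4.11 and that of Ubald2 with 4.08, both also in 2 pieces in replicate 2. Peaks covered 5108 bp at Gm26698 and 3611 bp at Ubald2 in replicate 1, and 2555 and 1530 bp in replicate 2. At the other end stood Smarca2, which encodes a chromatin remodelling ATPase, with 4451 bp in replicate 1 and 4572 bp in replicate 2 (ratio 0.97), then Anp32a at 0.98 and Purb at 0.99. Replicate 2 held 1 joined domain at 503 of the 558 regions (90.1%), and replicate 1 at all 558.

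Nearly every broad domain held the start of a protein-coding gene. In the GENCODE M21 annotation, 536 of 558 (96.1%, Wilson interval 94.1 to 97.4%) contained a coding start, against 71.0% of narrower domains. Most of that gap came from domains under 2 kb, since the share was 94.1% at 2 to 3 kb and 94.4% at 3 to 4 kb. Broad domains contained 424 single coding genes, 112 sets of several, 10 noncoding starts without a coding one and 12 regions with no annotated start. Starts of 657 coding genes lay in them, 6.46% of the 10178 with a start in any joined domain. The density of distinct coding starts was 0.89 per kb in broad and 1.55 per kb in narrower domains. This density divides by the width that the domains were chosen by. Counted per domain, the mean was 1.18 coding genes in broad and 0.81 in narrower domains. The 5′ end of a whole gene, as opposed to any transcript start, lay in 464 broad domains. The other 72 with a coding start held an internal start alone, among them those of Zeb2, Atf3, Lgals3, Mef2c, Ikzf1 and Vmp1.

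The mark spread chiefly downstream of the start. Among domains with 1 coding gene and no start of another gene, 307 broad ones could be measured from a start of the gene. This was the start of a principal protein-coding transcript if 1 began inside the domain. Otherwise it was that of the longest transcript beginning there, protein-coding ones first, so it can be an internal start. These 307 domains reached a median of 1018 bp upstream (quartiles 644 and 1697.5 bp) and 3581 bp downstream (3107.5 and 4302 bp), against 558 bp and 1213 bp in 6508 narrower domains. Across the classes of width, the median upstream spread was 480 bp at 1 to 2 kb, 760 bp at 2 to 3 kb, 947.5 bp at 3 to 4 kb, 962 bp at 4 to 5 kb, 1315 bp at 5 to 6 kb and 1291 bp at 6 kb or more. The median downstream spread over the same classes was 1071, 1590, 2416, 3426, 4069 and 5343 bp. Between the classes of 3 to 4 kb and 4 to 5 kb the upstream medians were thus nearly equal and the downstream medians were not. Since members were chosen by width, a greater spread in total is built into them; how it divides between the sides is not. The side itself was no mark of broad domains, because the downstream part was the longer at 91.2% of them and at 90.3% of narrower ones.

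**Figure D2:**
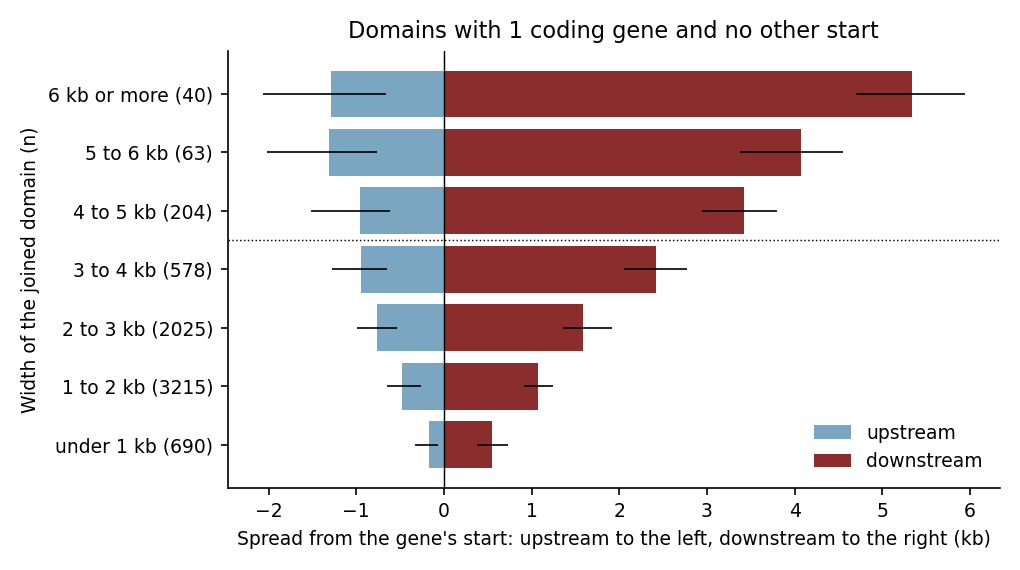
Median spread (kb) upstream (left, blue) and downstream (right, red) of the gene's start by width of the joined domain, with quartiles as lines and the number of domains in brackets; the dotted line separates broad domains from narrower ones. Downstream spread goes from 2.42 kb at 3 to 4 kb of width to 3.43 kb at 4 to 5 kb, while upstream spread is 0.95 and 0.96 kb.

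Each replicate's own peaks gave the same arrangement. Measured in replicate 1, the downstream part was the longer at 279 of 306 broad domains, with medians of 1064 bp upstream and 3685.5 bp downstream, and in replicate 2 at 244 of 273, with 947 and 2983 bp. The summit of the strongest peak lay downstream of the start at 280 of 307 in replicate 1 and 282 of 307 in replicate 2, at medians of 649 and 639 bp. In narrower domains the summit lay at medians of 379 and 392 bp. By width, the medians were 599 and 601.5 bp at 3 to 4 kb, 607.5 and 626 bp at 4 to 5 kb, 598 and 625 bp at 5 to 6 kb and 831.5 and 760.5 bp at 6 kb or more. The position of the summit was thus shared with domains of 3 to 4 kb, and lay far short of the downstream edge. The highest peak fold, the authors' own value within each list, had a median of 31.3 in broad and 21.0 in narrower domains of the replicated list. It was 6.34 under 1 kb, 27.7 at 2 to 3 kb, 29.2 at 3 to 4 kb and 31.0 at 4 to 5 kb, so the classes next to the threshold had nearly the same fold.

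Individual domains differed in how they lay on the gene. At Psap, chr10:60276980-60290756, a single peak of replicate 1 ran from 0.65 kb upstream to 10.4 kb downstream and another to 13.2 kb, while replicate 2 had a peak from 0.11 to 9.14 kb and a small one from 12.5 to 12.9 kb. At Ctsb, the gene for the lysosomal protease cathepsin B, the 9642 bp domain reached 597 bp upstream and 9045 bp downstream, where its edge lay in intron 1. Setd1b and Tnrc18 were the opposite case. Setd1b, which encodes an H3K4 methyltransferase of the SET1 family, had 6451 bp upstream and 3404 bp downstream, and Tnrc18 had 5944 and 4161 bp. The Setd1b domain also holds starts of 3 noncoding genes, 4932422M17Rik, AI480526 and Gm38102, so its spread cannot be assigned to Setd1b alone and it is not among the 307, whereas the Tnrc18 domain holds no noncoding start. These domains lay further upstream than downstream in both replicates.

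**Figure D3:**
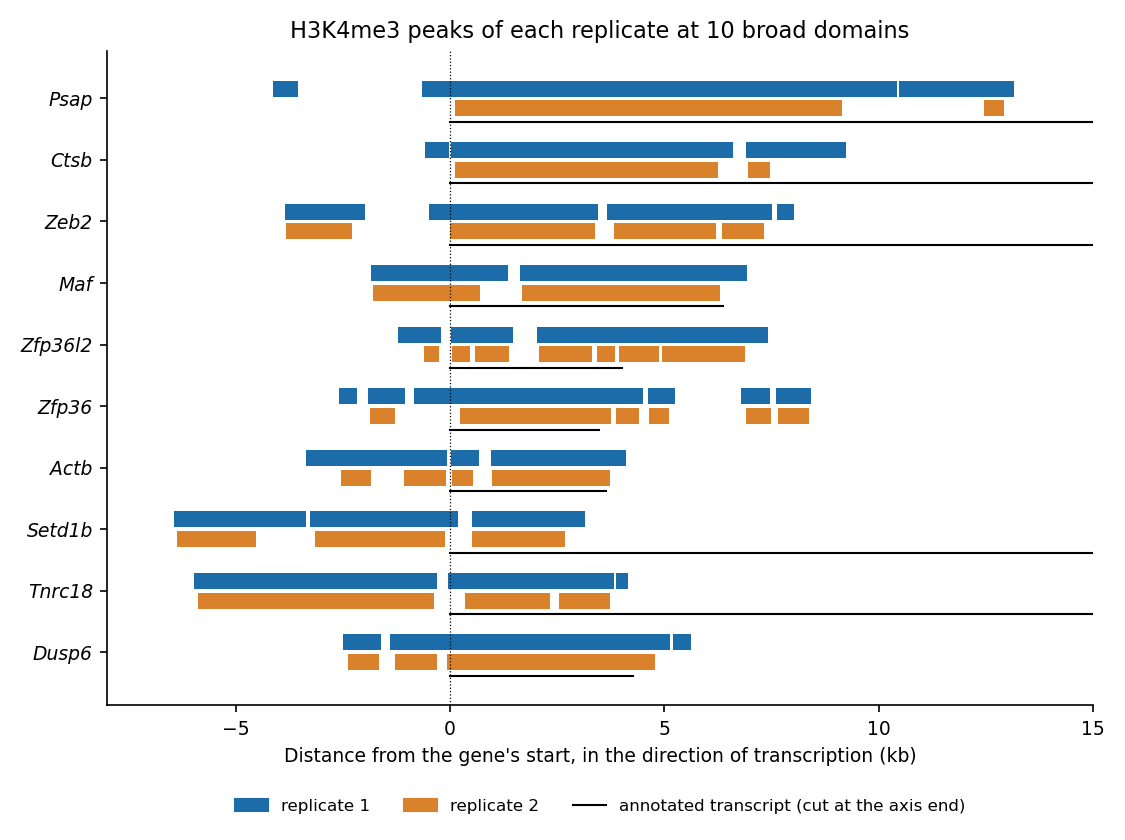
Peaks of replicate 1 (blue) and replicate 2 (orange) at 10 broad domains, drawn to scale as distance from the start used for the gene, in the direction of transcription (kb). The black line is the annotated transcript from that start, which at Zeb2 is an internal start and not the 5′ end of the gene. Psap, Ctsb, Zeb2 and Maf extend mainly downstream, Setd1b and Tnrc18 mainly upstream, and the domains of Zfp36l2, Zfp36, Actb and Dusp6 pass both ends of a short gene; the domains of Setd1b, Zeb2, Maf, Zfp36l2, Zfp36 and Dusp6 also hold noncoding starts, which are not drawn.

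The downstream edge of the 307 domains lay in intron 1 at 191 (62.2%), in a later intron at 82, in a later exon at 18, past the end of the transcript at 12 and in exon 1 at 4. In narrower domains the edge lay in intron 1 at 73.0% and in exon 1 at 3.95%. Genes of broad domains were about as long as the others, with a median of 27343 bp against 25817.5 bp, and a broad domain covered a median of 15.5% of its gene, against 5.05% for a narrower one, a share that grows with the width the domains were chosen by. Annotated starts were spread over a median of 447 bp inside broad domains and 69 bp inside narrower ones, so the distance from the most downstream start can be shorter than that from the start used.

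A set of short genes lay wholly inside their broad domain. They numbered 25 of the 424 single-gene domains (5.90%), against 49 of 7681 narrower ones (0.64%), and had a median length of 3238 bp and at most 4678 bp. A wider domain has more room for a whole gene, so this contrast follows in part from the choice by width. Among them were Zfp36l2, Zfp36, Ier2, Jun, Mcl1, Gadd45b, Nfkbia and Dusp6, which are quickly induced regulators of mRNA decay, transcription, survival or signalling. Others were the ferritin genes Fth1 and Ftl1, which encode the subunits of the iron store, Actb for beta-actin, Pfn1 and Tmsb4x for actin-binding proteins, and Mpeg1, a macrophage gene for a pore-forming protein. At Dusp6, a phosphatase of the MAP kinase pathway, the domain spanned 8094 bp over a gene of 4259 bp, with 8105 bp in replicate 1 and 7158 bp in replicate 2. At Zfp36, which encodes the mRNA-decay protein tristetraprolin, it spanned 7167 bp over 3470 bp, with 7851 bp and 4880 bp.

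CpG content fell away from the start much faster than the mark. In windows of 500 bp, the median density in broad domains was 7.6 CpG per 100 bp at 0 to 0.5 kb downstream of the start, 3.6 at 0.5 to 1 kb, 2.0 at 1 to 1.5 kb and 1.0 at 2 to 2.5 kb. In narrower domains the medians were 7.0, 2.2, 1.2 and 1.0. At the centre of the window 2 to 2.5 kb downstream, where the medians were the same, a peak lay over 89.3% of broad domains in replicate 1 and 73.6% in replicate 2, and over 9.16 and 4.12% of narrower ones. The share of peaks was fixed in part by the choice on width; the CpG density was not used in it.

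**Figure D4:**
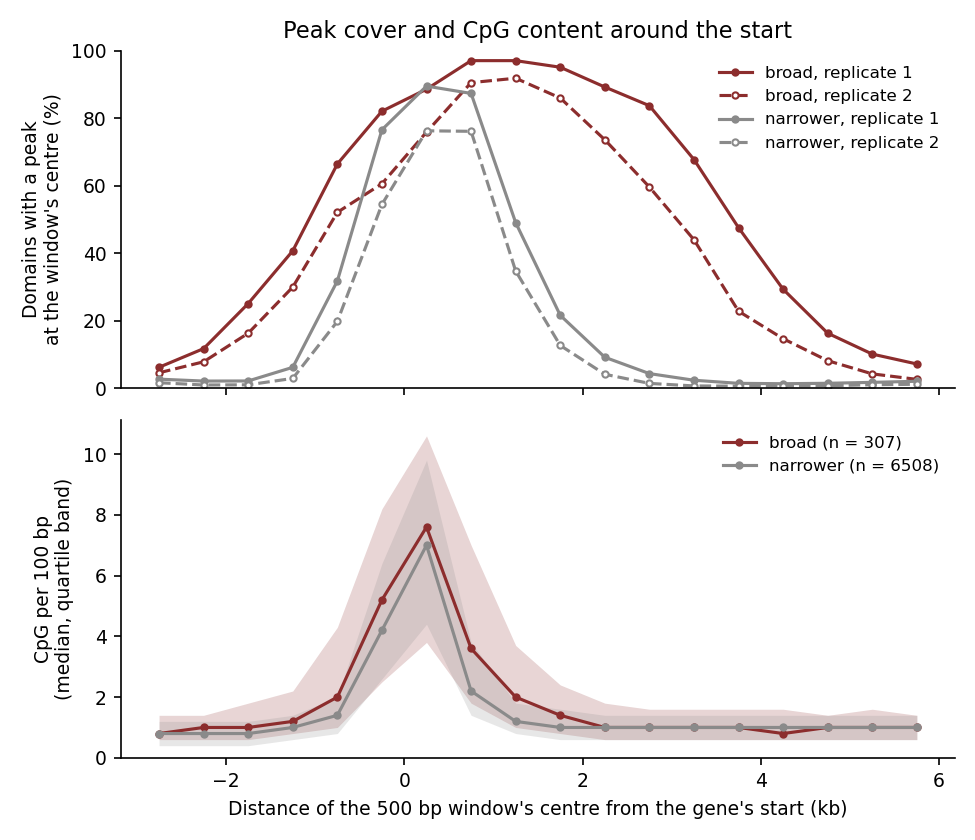
Top, share of domains (%) with a peak of each replicate at the centre of 500 bp windows around the gene's start; bottom, median CpG per 100 bp in the same windows with the quartile band, for 307 broad (red) and 6508 narrower (grey) domains. From 2 kb downstream the CpG medians of both groups lie near 1.0, where at 2 to 2.5 kb most broad domains still carry a peak.

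Over the whole domain, broad domains had a CpG observed/expected ratio with a median of 0.53 and 35.5% of bases in CpG islands, against 0.58 and 47.9% in narrower ones. The relation to width had a maximum: the median ratio was 0.48 under 1 kb, 0.58 at 1 to 2 kb, 0.64 at 2 to 3 kb, 0.62 at 3 to 4 kb, 0.55 at 4 to 5 kb, 0.51 at 5 to 6 kb and 0.47 at 6 kb or more. Island bases inside the domain had a median of 1701 bp in broad and 765 bp in narrower domains. This length cannot exceed the width that the domains were chosen by. The classes next to the threshold were close, at 1519 bp for 3 to 4 kb and 1584 bp for 4 to 5 kb. GC content differed little, at medians of 51.5 and 52.6%.

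A search for short motifs on both strands of the 250 bp upstream of the start, chosen after the regions were known, gave similar shares for the factors of macrophages. The PU.1 motif GAGGAAGT occurred at 3.58% of 307 broad and 3.03% of 6508 narrower domains, and the AP-1 motif TGANTCA at 4.89 and 4.24%. The TATA box TATAAA occurred at 9.77 and 5.70%, the CCAAT box CCAAT at 30.0 and 35.7%, the cyclic AMP response element TGACGTCA at 0.98 and 2.75%, and the E-box TCACGTGA at 0.33 and 1.40%. The last 2 of these rested on 3 and 1 broad domains. No motif searched contains another.

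Of the 558 domains, 169 (30.3%) were a single peak, against 73.6% of narrower ones. The other 389 were joined from several peaks, and 222 of them (57.1%) had any annotated coding start inside a gap between peaks. This share was 70.3% in joined narrower domains. Joining therefore often bridged an annotated start.

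The widest domains with a coding start belonged to Psap at 13777 bp, BC005537 at 11750 bp, Tnrc18 at 10105 bp, Setd1b at 9855 bp, Ctsb at 9642 bp, Apobec1 at 9405 bp and Lpxn with Zfp91 at 9045 bp. Apobec1 encodes an RNA-editing cytidine deaminase. They were followed by Maf at 8652 bp, Zfp36l2 at 8621 bp, Brd2 with H2-DMa at 8550 bp, Zeb2 at 8430 bp, Bcl6 with the predicted gene Gm37419 at 8350 bp, Dusp6 at 8094 bp, Id2 at 7999 bp and Zfp608 at 7855 bp. Maf, Zeb2, Bcl6 and Id2 encode regulators of transcription with known roles in blood cells. In replicate 2 all but Zfp608, at 3309 bp, exceeded 5 kb, with BC005537 the widest at 10041 bp.

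Transcription factors of the macrophage lineage were often in broad domains. Of 25 listed genes 21 had a start in any domain and 11 of these in a broad one (52.4%), against 6.46% of all coding genes with a start in a domain. The list includes the mRNA-decay genes Zfp36l1 and Zfp36l2, which are not transcription factors, with domains of 6005 and 8621 bp; without them the count was 9 of 19 (47.4%). Maf, a leucine zipper factor of macrophage differentiation, had 8784 bp in replicate 1 and 8080 bp in replicate 2. Zeb2, a zinc finger repressor that maintains tissue macrophages, had 8515 and 7345 bp. Id2, an inhibitor of helix-loop-helix factors, had 8744 and 7530 bp. At all 3 genes replicate 2 was the narrower and still far above 4000 bp. Mef2c had 7221 and 4017 bp, Bhlhe41 5953 and 5560 bp and Fli1 4738 and 4134 bp. Bhlhe40 with 3697 bp and Irf8, a factor of monocyte development, with 3414 bp fell below 4000 bp in replicate 2. Below the threshold were Runx1 at 3700 bp, Mef2d at 3620 bp and Cebpd at 3617 bp. Spi1, the gene of PU.1, was not broad either, at 3463 bp, with 2886 bp in replicate 2. Cebpa, Cebpb, Bach1 and Rxra had no start in any joined domain.

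Genes for macrophage receptors and secreted proteins were in broad domains at 7 of 23 (30.4%). Sirpa, the receptor of the CD47 signal that blocks phagocytosis, had a domain of 6322 bp, Mpeg1 one of 5861 bp and Cd68, a lysosomal glycoprotein used as a macrophage marker, one of 5661 bp shared with Mpdu1. Mrc1, Fcer1g, Trem2 and Lilrb4a followed at 4015 to 4881 bp. Only Mpeg1, Cd68 and Mrc1 of these 7 exceeded 4000 bp in replicate 2. As a check of the labelled cell type, all 8 defining macrophage markers had a start in a joined domain and 2, Mpeg1 and Cd68, in a broad one, with Csf1r at 3629 bp, Lyz2 at 3595 bp, Cd14 at 2689 bp, Adgre1 at 2663 bp, Fcgr1 at 2288 bp and Itgam at 2115 bp. Among markers of other cells, 1 of 15 for fibroblasts, 4 of 18 for lymphocytes and 1 of 16 for neutrophils had a start in any domain. Of all 21938 coding genes, 10178 had one. Each of these marker lists had 0 in a broad domain, which says little where so few had any domain.

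Listed lysosomal genes were in broad domains at 10 of 23 (43.5%). After Psap and Ctsb came Atp6v1a, a subunit of the proton pump that acidifies lysosomes, at 6691 bp in a domain shared with Naa50, and the protease gene Ctsd at 6423 bp. Hexa, Grn and Atp6v0c had 5542, 5428 and 5195 bp, and Lgmn, Npc2 and Tfe3 had 4245 to 4935 bp. Tfe3 encodes one of the factors that switch on lysosomal genes. In replicate 2, 7 of the 10 reached 4000 bp, while Lgmn had 3609 bp, Npc2 3666 bp and Tfe3 3745 bp.

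Listed actin and adhesion genes were in broad domains at 11 of 24 (45.8%). Actb, for beta-actin, had 6944 bp, with 7475 bp in replicate 1 and 6274 bp in replicate 2. Tln1, which links integrins to actin, had 6436 bp in a domain shared with Creb3, and Vim, for the intermediate filament protein vimentin, had 5636 bp. Cfl1, Pfn1, Actg1, Arpc2, Marcks, Capg, Rhoa and Tmsb4x made up the rest at 4244 to 5355 bp. The broad members thus include actin itself, its monomer-binding proteins and a subunit of its branching complex. Below the threshold were Myh9 at 3910 bp and Coro1a at 3882 bp, with Flna at 2982 bp, Rac1 at 2972 bp and Vcl at 2444 bp among the others. Genes whose RefSeq description names actin had 9 of 56 in broad domains (16.1%).

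Immediate early genes, which cells transcribe within minutes of a stimulus, were in broad domains at 9 of 27 (33.3%) in these unstimulated cells, and all 9 reached 4000 bp in each replicate. Atf3 had 7588 bp, Zfp36 7167 bp, Klf6 6466 bp, Mcl1 6321 bp, Myc 5877 bp, Ier2 5836 bp, Jun 5699 bp, Btg1 4936 bp and Sgk1 4887 bp. Fosl2 at 3796 bp, Nr4a3 at 3715 bp and Fos at 3372 bp stood below the threshold. Fosl2 had 6361 bp in replicate 1 and 2450 bp in replicate 2.

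Genes of inflammatory signalling and output were counted in the same way. Of 31 NF-κB, IRF or STAT pathway genes with a domain, 3 had a broad one (9.68%): Irf2 at 4809 bp, Irf5 at 4753 bp and Nfkbia, the gene of the inhibitor IκBα, at 4552 bp. Of interferon-stimulated genes it was 2 of 22 (9.09%), Trim25 at 5401 bp and Irgm1 at 4344 bp, with Parp14 at 3985 bp just outside. These shares lie near the background of 6.46%. Inducible cytokines and chemokines had 0 of the 10 with a start in any domain, out of 24 listed, the widest being Ccl3 at 3089 bp, Tnf at 3064 bp and Ccl7 at 2781 bp. With 10 genes and that background, a count of 0 says little.

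Among genes of general cell function the shares varied from list to list. Tumour suppressor and cell cycle genes had 9 of 24 (37.5%), led by Ccnl1 at 6270 bp, the cyclin D1 gene Ccnd1 at 6033 bp and Cdkn1a, the gene of the cell cycle inhibitor p21, at 6031 bp, with Trp53, sharing its domain with Wrap53, at 4563 bp. Ccnl1 is counted again below, with the Ccnl, Clk, Srsf and Hnrnp families. Housekeeping metabolism and proteostasis had 8 of 24 (33.3%), led by the glycolytic gene Pkm at 6654 bp, with the chaperone gene Hspa5 at 5934 bp. Splicing factors had 8 of 26 (30.8%), led by Srsf2 with Mfsd11 at 6539 bp, Hnrnpa2b1 with Cbx3 at 5593 bp and Ptbp1 at 5582 bp. Broad domains were thus found at many genes that most cell types use.

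Chromatin regulators had 5 of 24 (20.8%), and 4 of the 5 encode proteins of the H3K4 methyltransferase families. Setd1b had 9855 bp, Kmt2e 6486 bp, Kmt2a 4408 bp and Kmt2d 4312 bp, and the fifth, Brd2, which binds acetylated histones, had 8550 bp. Kmt2e lacks known methyltransferase activity despite its name. All 5 reached 4000 bp in each replicate, with Kmt2d at 4008 bp and Kmt2a at 4086 bp in replicate 2. Kmt2c, at 3979 bp in the replicated list, had 3995 bp in replicate 1 and 1496 bp in replicate 2. Setd1a at 2627 bp and Kmt2b at 2651 bp, of the same methyltransferase families, were not broad. Among all Kdm, Kmt and Setd genes with a domain, 4 of 29 (13.8%) had a broad one. Lipid genes had 4 of 24 (16.7%), with the desaturase gene Scd2 at 6687 bp, the lipase gene Lpl at 4170 bp and Insig1 at 4062 bp, while Hmgcs1 at 3976 bp lay just outside.

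Cytoplasmic ribosomal proteins and translation factors had 0 of 22 in broad domains, where the background of 6.46% would also give few. Their median width was 2707.5 bp, above the 2111 bp of all coding genes with a domain, and the widest were Eif4a1 at 3900 bp, Rpl7 with Rdh10 at 3799 bp and Rpl3 at 3405 bp. These genes are known to be highly transcribed in most cell types. Developmental regulators, silent in most adult blood cells, had a start in a joined domain at 2 of 25 and in a broad one at 0.

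**Figure D5:**
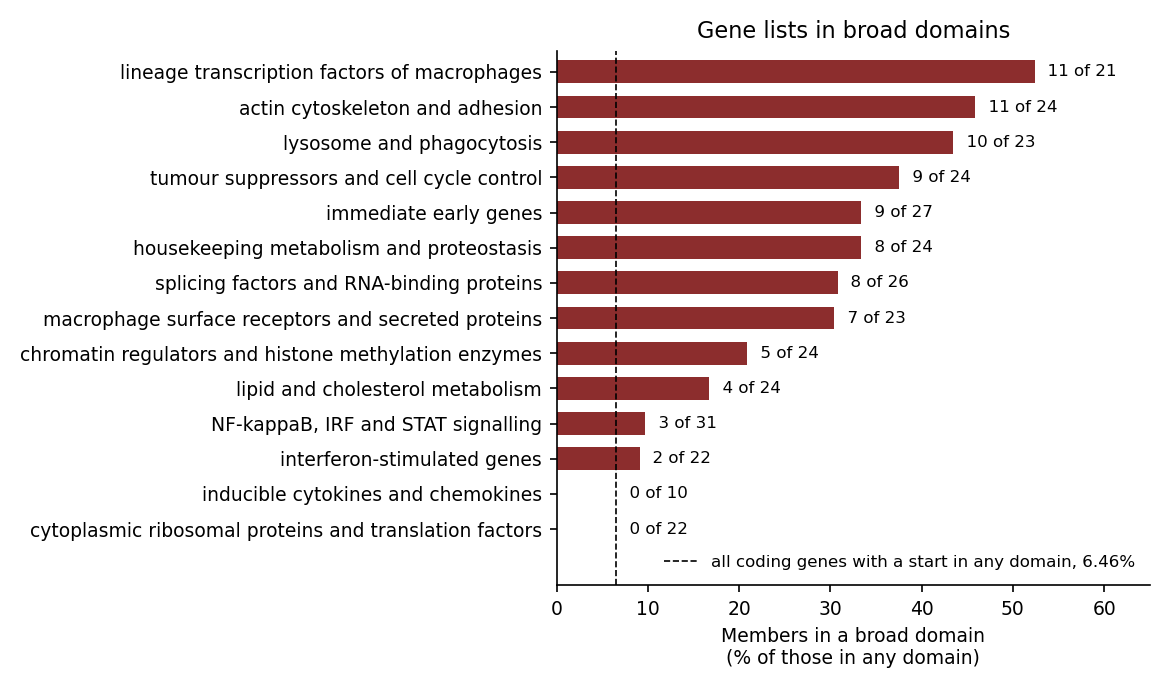
Share of list members (%) with a start in a broad domain among members with a start in any joined domain, for the 14 lists with at least 10 such members; bars carry the counts and the dashed line marks all coding genes, 6.46%. Lineage factors have 11 of 21 (9 of 19 without Zfp36l1 and Zfp36l2) and actin genes 11 of 24. Ribosomal proteins and cytokines have 0 of 22 and 0 of 10, lists so small that the background of 6.46% would also give few.

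Families read from gene symbols and RefSeq descriptions were chosen after the members were known. All 3 Zfp36 family genes with a domain had a broad one, as did 11 of 36 genes of the Ccnl, Clk, Srsf and Hnrnp families (30.6%), 9 of 33 histone genes (27.3%) and 4 of 16 genes of the proton pump family Atp6. The 9 histone genes shared domains and are not separate regions: Hist1h2af with Hist1h3g and Hist1h4h, Hist1h2ad with Hist1h2bf and Hist1h3d, and Hist2h2ab with Hist2h2ac and Hist2h2be. In replicate 2 these domains had 2553, 2177 and 4702 bp. Low shares were found for Rpl and Rps genes at 2 of 85 (2.35%), Mrp genes of the mitochondrial ribosome at 2 of 77 (2.60%), Nduf genes of respiratory complex I at 1 of 45 (2.22%), Rab genes of vesicle traffic at 0 of 45, and Zfp genes other than the Zfp36 family at 6 of 283 (2.12%). Of 9998 genes with a description, 639 were in broad domains (6.39%). Genes described as hnRNP or splicing proteins had 14 of 59 (23.7%), those with a leucine zipper, helix-loop-helix, homeobox or forkhead 11 of 68 (16.2%), those with "mitochondrial" 4 of 255 (1.57%) and those with "kinase" 30 of 473 (6.34%). The shares for kinases and for zinc finger genes, 25 of 493 (5.07%), lie near that of all described genes.

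Domains with starts of several coding genes made up 112 of the 536 (20.9%, Wilson interval 17.7 to 24.5%), against 13.0% of narrower domains with a coding start. The share was not particular to them, since it was 22.2% at 3 to 4 kb and 19.9% at 2 to 3 kb. They contained 2 genes at 101 domains, 3 at 9 and 4 at 2, and 13 had fewer than 2 named genes once predicted models were set aside. Genes on both strands were present at 95 of the 112 (84.8%), and at 89.8% of such narrower domains. A peak in such a domain cannot be assigned to 1 of its genes.

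The domains with most coding genes included 2 in histone gene clusters. One of 4821 bp on chromosome 3 held Bola1 and the histone genes Hist2h2ab, Hist2h2ac and Hist2h2be, with 4800 bp in replicate 1 and 4702 bp in replicate 2. Another of 4279 bp on chromosome 7 held Mvp, Pagr1a, Pagr1b and a predicted gene. One of 7397 bp on chromosome 13 held Hist1h2af, Hist1h3g and Hist1h4h, and in replicate 2 its widest piece was 2553 bp. Gpsm3, Notch4 and Pbx2 lay in 7158 bp on chromosome 17 with 6867 bp in replicate 2. Ddit3, the gene of a stress-induced transcription factor that the annotation lists under 2 identifiers, lay with Mbd6 in 6350 bp on chromosome 10. Histone genes have near-identical copies, so reads there may be shared between copies.

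Separate broad domains, 2 for each gene, were found at 4 genes. These were Foxp1, with 4756 and 4706 bp, Gse1, with 4333 and 4081 bp, Mbnl1, with 6165 and 4736 bp, and Stab1, with 4472 and 4339 bp. In the replicates' own lists these pairs were less even. The first Foxp1 domain had 3661 bp in replicate 1 and 3248 bp in replicate 2, and in replicate 2 the second domains of Gse1 and Mbnl1 had 3442 and 3532 bp and those of Stab1 3751 and 2885 bp, all under 4000 bp. At Foxp1, a forkhead factor of monocyte maturation, the 2 domains lie far apart on chromosome 6, at chr6:99024586-99029341 and chr6:99519349-99524054, whereas at Stab1, which encodes a scavenger receptor, the 2 are neighbours, at chr14:31158660-31163131 and chr14:31164921-31169259.

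The 22 broad domains without a coding start held several long noncoding RNA genes of the nucleus. The widest, at chr19:5795838-5804393, held Malat1 and measured 8556 bp, with 8616 bp in replicate 1 and 7858 bp in replicate 2. The next, at chr19:5838355-5846474, held Neat1, the RNA scaffold of paraspeckles, and measured 8120 bp, with 13116 bp in replicate 1, where the joined domain ran past the region, and 5873 bp in replicate 2. Another lay within Osbpl8, 190 bp from its nearest annotated start, and measured 7632 bp, so it borders a promoter. One of 7433 bp held the start of 1810026B05Rik, 10871 bp from the nearest coding start, that of Chd2. One of 6366 bp lay within Irf2bp2, 1319 bp from its start. Domains within Lcp1, Qk and Fhl3 likewise lay 430, 343 and 125 bp from a start of the gene around them. Lncpint, at 6075 bp, and Dleu2, at 5407 bp, were further noncoding genes in this set.

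Noncoding starts of any kind lay in 148 broad domains (26.5%), against 13.6% of narrower ones, and starts of annotated miRNA genes in 20 (3.58%), against 0.97%. These shares are per domain and are not scaled to width. For noncoding starts of any kind the share was 22.8% at 3 to 4 kb and 20.7% at 4 to 5 kb. For miRNA genes it was 2.66 and 3.17%, so the classes next to the threshold were close. The miRNA genes named here were looked up after the members were known. Mir21a lay inside a 5600 bp domain at chr11:86582146-86587745 that holds an internal start of Vmp1, with 6600 bp in replicate 1 and 4939 bp in replicate 2. Mir22 lay in the 4099 bp domain of Tlcd2, with 4173 and 2878 bp. Mir191 and Mir425 lay together in the 4801 bp domain of Dalrd3 and Ndufaf3, with 4863 and 2657 bp, so only the Mir21a domain exceeded 4000 bp in both replicates. Mature sequences from RefSeq are given 5′ to 3′ with the seed, bases 2 to 8, in capitals.
miR-21a-5p: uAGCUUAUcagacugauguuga
miR-22-3p: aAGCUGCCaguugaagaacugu
miR-191-5p: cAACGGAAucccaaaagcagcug
miR-425-5p: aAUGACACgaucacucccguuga
The 4 seeds differ from each other. Broad domains without a coding start also lay near other miRNA genes. One of 5407 bp at Dleu2 lay 12816 bp from Mir15a and 12954 bp from Mir16-1, whose mature 5p forms share a seed, and one of 4765 bp at Gm14636 lay 16427 bp from Mir222 and 17010 bp from Mir221, whose 3p forms share another. One of 4034 bp with no annotated start lay 3533 bp from Mir23a.
miR-15a-5p: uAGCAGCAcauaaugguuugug
miR-16-5p: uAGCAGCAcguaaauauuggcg
miR-221-3p: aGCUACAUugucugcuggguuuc
miR-222-3p: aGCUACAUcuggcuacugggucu
miR-23a-3p: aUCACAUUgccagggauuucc
miR-15 and miR-16 are known to restrain the cell cycle and BCL2, and miR-221 and miR-222 to target the cell cycle inhibitor p27. Peak lists do not show whether a miRNA is made from a nearby domain.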

How the data were processed

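H3K4me3 peaks of 2 replicates of unstimulated macrophages were used, with the members and lists chosen with earlier results of these data known. The authors called peaks on each replicate and on both alignments together, and made a replicated list, per the deposited provenance texts; the assembly is mm10 per the labels. Not given in the sources used here are the aligner, the peak caller and its thresholds. Each peak in the deposited lists carries the authors' fold (a ratio whose reference is not stated), a −log10 q value and a summit distance, among other values. No read counts were used, so depth is unknown.

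Peaks within 1000 bp were joined (pandas 2.3.3, numpy 2.4.6), and spans of at least 4000 bp kept on 21 chromosomes; 0 peak ends lay beyond GRCm38.p6. Starts were all transcript starts of coding genes in GENCODE M21. A width in a replicate is that of its widest joined domain overlapping the region, which can extend past it. CpG islands were 200 bp windows with GC of at least 50% and a CpG observed/expected ratio of at least 0.6. Wilson intervals (95%, scipy 1.17.1) treat regions as independent and cover counting error only. No test was run. Named genes were the 15 widest coding-start domains, the 3 widest of each list, the 5 with most genes, the 5 widest without a coding start, and 3 at each side of the threshold and each end of the replicate ratio; other genes were named after their values were seen. Alternatives were other joining distances, minimum widths, lists, start definitions and island limits. The joining and overlap code was tested on simulated intervals. Some genes and 1 sequence that the rule names are not reported here.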

Additional observations from a re-analysis of the deposited data

How the results depend on the processing

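The number of broad domains, 558, became 234 without joining, 1610 with a minimum of 3000 bp and 211 with a minimum of 5000 bp; the number of coding genes in them, 657, became 242, 1865 and 244, and the regions reaching the minimum in both replicates, 288, became 78, 884 and 116. Built from 1 replicate's list, the domains numbered 288 to 681, their genes 334 to 806, those reaching 4000 bp in both 288 to 288, the share with a coding start 94.8 to 95.9% and the share with several genes 19.4 to 20.7%. The low ends are domains built without replicate 1. The share with a coding start was 88.5% without joining and 83.2% with 1 start per gene, its 5′ end. The share with several genes was 16.9% without joining and 25.3% with joining within 2 kb. The median width, without joining, was 3664.5 bp in replicate 1 and 2501 bp in replicate 2. The share of bases in CpG islands, 36.2%, was 33.0% with islands of at least 500 bp, GC of 55% and a ratio of 0.65. No other alternative changed a count by over 1.5 times, took a share out of its Wilson interval or moved a median by more than the SD between the replicates' medians. No paired analysis was possible because there is 1 group and no test was run. Peak lists without read depth limit what a narrower domain in replicate 2 can be read as, and 2 libraries give no spread between cultures.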
